A study of Homo sapiens with 6 samples.

Results

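The plasminogen activation system and the tissue factor pathway were described by 9 genes, which were selected by their symbol, with earlier results of these data known. They are the proteases PLAU and PLAT, the receptor PLAUR, the serpins SERPINE2 and SERPINB2, the initiator of coagulation F3, its inhibitors TFPI and TFPI2, and the thrombin receptor F2R. All 9 genes were found among the 57445 genes of the deposited table, each with 1 entry. The cells were MDA-MB-231, a cultured line of human breast cancer without hormone receptors. Gene expression was measured in 3 libraries from cells that carried a nonsense control shRNA (shCTL) and in 3 libraries from cells that carried a shRNA against ROR1 (shRor1), a Wnt-binding receptor of the cell surface. All cells had received a lentiviral pGIPZ vector and were selected with 2 µg/ml puromycin, so that both groups share the vector and the antibiotic, and the labels name 1 vector for the knockdown. The source label of the control samples names an empty vector, whereas the design text and the paper name a control shRNA, and the control columns also carry the word DMSO, which the shRor1 columns do not. Whether the control cells were treated with this solvent is not stated, so that a difference in solvent and the knockdown cannot be told apart. Nothing in the labels says that the libraries of a group came from separate cultures, and p-values then measure only the spread between these samples.

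In the deposited table the expression of each gene is given as TPM, the share of a gene among all transcripts of a library after correction for transcript length, scaled to the same total in each library, so that levels of different genes can be compared. Within a group all columns have an identical header, so libraries are named by their place in the table. ROR1, the targeted gene, had 15.4, 13.5 and 20.6 TPM in shCTL and 9.34, 11.9 and 14.9 TPM in shRor1, with a log2 fold change of -0.43 (standard error, SE, 0.20, limma adjusted p = 0.984). The first- and the second-listed shRor1 libraries lay below all controls, and the third-listed fell within their range. The groups thus overlapped, and ROR1 mRNA did not pass the test (limma unadjusted p = 0.0649). The main fit therefore gives no tested decrease of the target mRNA. The direction was nevertheless stable, since ROR1 was lower in shRor1 in all 14 alternative fits. Its log2 fold change ran from -0.58 without the third-listed shRor1 library to -0.26 without the third-listed shCTL library. With median ratio scaling, an alternative scaling of the libraries, it was -0.48 (SE 0.17), and with quantile normalization -0.49 (SE 0.16). The smallest limma adjusted p of ROR1 among these fits was 0.625. For the protein, the paper reports a stable knockdown of Ror1 with a western blot. It also reports less RhoA and less phosphorylated JNK in the shRor1 cells. The labelled cell line was checked against its markers. All 6 mesenchymal and basal markers had at least 1 TPM in all libraries, with a summed level from 4173 to 4392 TPM in shCTL and from 4225 to 4646 TPM in shRor1, while the hormone receptor genes ESR1 and PGR stayed below 1 TPM in every library. Of the 6 luminal and hormone receptor genes, which were listed as low or absent, 3 reached 1 TPM in all libraries, with ERBB2 at 26.6 to 34.9 TPM, EPCAM at 12.6 to 15.8 TPM and GATA3 at 3.83 to 4.69 TPM.

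The urokinase system cuts the inactive zymogen plasminogen into plasmin, a protease that dissolves fibrin and degrades matrix proteins. Urokinase binds to its receptor on the cell surface, which places this activity at the edge of migrating cells, and serpins inactivate the activators. Tissue factor is the membrane receptor that starts coagulation by binding factor VII, and it leads to thrombin, which signals to cells by cutting protease-activated receptors. MDA-MB-231 cells are known for expressing urokinase, its receptor and tissue factor.

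F3, the gene for tissue factor (ENSG00000117525.9, chromosome 1 of GRCh37 from 94994729 to 95007315, minus strand), was the most abundant of the 9 genes. It had 487, 449 and 391 TPM in shCTL and 526, 411 and 354 TPM in shRor1. The first-listed library was the highest and the third-listed library the lowest of each group, and the shRor1 libraries spanned the whole range of the controls. The means were 442 ± 48.0 TPM and 431 ± 87.3 TPM (SD, n = 3 each), and the mean of shCTL was above that of 98.2% of the 16554 genes tested. On the log2(TPM + 1) scale shRor1 differed from shCTL by a log2 fold change of -0.05 (SE 0.15, 95% interval from -0.40 to 0.30, limma adjusted p = 0.987). Its sign turned without the first-listed shCTL library (0.020) and without the third-listed shRor1 library (0.078).

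TFPI, the Kunitz-type inhibitor that blocks the complex of tissue factor and factor VII (ENSG00000003436.10, chromosome 2 from 188328957 to 188430487, minus strand), had 81.8, 84.3 and 97.6 TPM in shCTL and 78.6, 103 and 130 TPM in shRor1. Both the second- and the third-listed shRor1 libraries lay above all controls, and the first-listed lay below all of them. The log2 fold change was 0.21 (SE 0.17, 95% interval from -0.19 to 0.61, limma adjusted p = 0.984). It was 0.040 without the third-listed shRor1 library and 0.40 without the first-listed (unadjusted p = 0.0186, adjusted p = 0.441), and over all 14 alternatives the adjusted p of TFPI lay between 0.441 and 1.00. TFPI2, a related inhibitor that is secreted into the matrix and also blocks plasmin (ENSG00000105825.7, chromosome 7 from 93514708 to 93520065, minus strand), had 35.4, 28.8 and 31.4 TPM in shCTL and 33.8, 26.6 and 31.5 TPM in shRor1. These ranges were nearly the same, and the log2 fold change was -0.06 (SE 0.12, 95% interval from -0.33 to 0.21, limma adjusted p = 0.986). It turned to 0.017 without the first-listed shCTL library and to 0.037 without the second-listed shRor1 library. CALCRL-AS1, a noncoding gene that shares exon positions with TFPI on the opposite strand, had 2.62 to 5.67 TPM in the 6 libraries.

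PLAU, which encodes urokinase (ENSG00000122861.11, chromosome 10 from 75668935 to 75677254, plus strand), was the more abundant of the activators. It had 158, 151 and 189 TPM in shCTL and 171, 170 and 201 TPM in shRor1. The third-listed library was the highest in both groups, and only the third-listed shRor1 library lay above all controls. The means were 166 ± 20.4 TPM and 181 ± 17.5 TPM (SD, n = 3 each). The log2 fold change was 0.13 (SE 0.11, 95% interval from -0.13 to 0.38, limma adjusted p = 0.984). It was 0.048 without the third-listed shRor1 library, 0.061 without the second-listed shCTL library and 0.22 without the third-listed shCTL library. The noncoding gene C10orf55, which overlaps PLAU on the opposite strand, had 1.24 to 1.76 TPM and was thus far below PLAU in every library.

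PLAUR, the urokinase receptor, which is anchored at the outer face of the cell membrane (ENSG00000011422.7, chromosome 19 from 44150247 to 44174699, minus strand), had 134, 120 and 119 TPM in shCTL and 136, 115 and 117 TPM in shRor1. Here 1 shRor1 library lay above all controls and the other two below all of them. With a log2 fold change of -0.02 (SE 0.09, 95% interval from -0.23 to 0.19, limma adjusted p = 0.992), PLAUR had the smallest difference of the 8 genes tested. Its sign turned without the first-listed shCTL library (0.036), the second-listed shRor1 library (0.025) or the third-listed shRor1 library (0.014).

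PLAT, which encodes the tissue-type plasminogen activator (ENSG00000104368.13, on chromosome 8 from 42032236 to 42065227, minus strand), varied most of the 8 tested members between the libraries of a group. It had 53.6, 43.5 and 110 TPM in shCTL and 56.1, 56.4 and 133 TPM in shRor1. In both groups the third-listed library was far above the other two. The SD within groups on the log2 scale was 0.70, which was larger than that of 98.5% of the tested genes. The log2 fold change was 0.23 (SE 0.42, 95% interval from -0.74 to 1.21, limma adjusted p = 0.986). It was -0.04 without the second-listed shCTL library, -0.17 without the third-listed shRor1 library and 0.62 without the third-listed shCTL library. Endothelial cells are a main source of PLAT in the body, and 4 of 5 endothelial markers were in the table. Their summed level was 0.88, 1.09 and 2.23 TPM in shCTL and 0.77, 1.14 and 2.25 TPM in shRor1, with VWF from 0.02 to 0.21 TPM, and was thus highest in the same libraries as PLAT. Most of the sum in the third-listed libraries was CDH5 (1.47 TPM in shCTL and 1.56 TPM in shRor1), while KDR was highest in the second-listed library of both groups. This place was not particular to endothelial markers. The summed leukocyte and platelet, hepatocyte and luminal markers were also highest in the third-listed library of both groups, and the mesenchymal and basal markers were lowest there. The summed fibroblast markers, with LUM listed at 0 in all libraries, were 10.8, 10.5 and 17.8 TPM in shCTL and 11.5, 10.4 and 15.8 TPM in shRor1. The part of such cells in the values of PLAT was not tested, and in a bulk library fewer cells of a type and less RNA per cell cannot be told apart.

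SERPINE2, or protease nexin-1, which inhibits thrombin, urokinase and plasmin (ENSG00000135919.8, chromosome 2 from 224839762 to 224904035, minus strand), was the only member whose groups did not overlap in TPM. It had 23.5, 23.2 and 20.4 TPM in shCTL and 25.7, 28.2 and 24.2 TPM in shRor1. All 3 shRor1 libraries lay above all 3 shCTL libraries, though the lowest shRor1 and the highest shCTL library were close. These were the third-listed shRor1 and the first-listed shCTL library, whose factors in median ratio scaling, an alternative scaling of the libraries, were 1.07 and 0.972. After division by the factors the groups of SERPINE2 overlapped, so that the separation depends on the scaling. The means were 22.4 ± 1.74 TPM and 26.0 ± 2.02 TPM (SD, n = 3 each), and the exact two-sided permutation test gave p = 0.1, the smallest p that 3 against 3 libraries allow. The log2 fold change was 0.21 (SE 0.10, 95% interval from -0.02 to 0.43, limma adjusted p = 0.984). With median ratio scaling it was 0.15 (SE 0.12). Among all tested genes, 6.48% were higher in shRor1 without overlap and 1.3% were lower, so that 1 of 8 higher and 0 of 8 lower members can be read against these shares.

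SERPINB2, the other member among the inhibitors of urokinase and PLAT (ENSG00000197632.4, chromosome 18 from 61538926 to 61571122, plus strand), was close to the limit of detection. It had 2.71, 0.37 and 0.35 TPM in shCTL and 1.36, 0.16 and 0.21 TPM in shRor1. The first-listed library of each group was far above the others, and SERPINB2 reached 1 TPM in these 2 libraries only. It was therefore not among the 16554 genes tested, which needed 1 TPM in at least 3 libraries. A fit without this filter gave a log2 fold change of -0.35 (SE 0.47, limma adjusted p = 0.929).

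F2R, which encodes PAR1, the receptor that thrombin activates by cutting its outer end (ENSG00000181104.6, chromosome 5 from 76011951 to 76031595, plus strand), had the largest difference among the tested members. It had 11.2, 12.4 and 15.0 TPM in shCTL and 12.8, 18.2 and 19.0 TPM in shRor1. The second- and the third-listed shRor1 libraries lay above all controls, while the first-listed fell within their range. The means were 12.9 ± 1.94 TPM and 16.7 ± 3.37 TPM (SD, n = 3 each), and the exact two-sided permutation test gave p = 0.2. The log2 fold change was 0.34 (SE 0.17, 95% interval from -0.05 to 0.74, limma adjusted p = 0.984). It was 0.51 without the first-listed shRor1 library (unadjusted p = 0.00891, adjusted p = 0.44), and over the 14 alternatives it ranged from 0.24 to 0.51 with an adjusted p from 0.44 to 1.00.

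**Figure D1:**
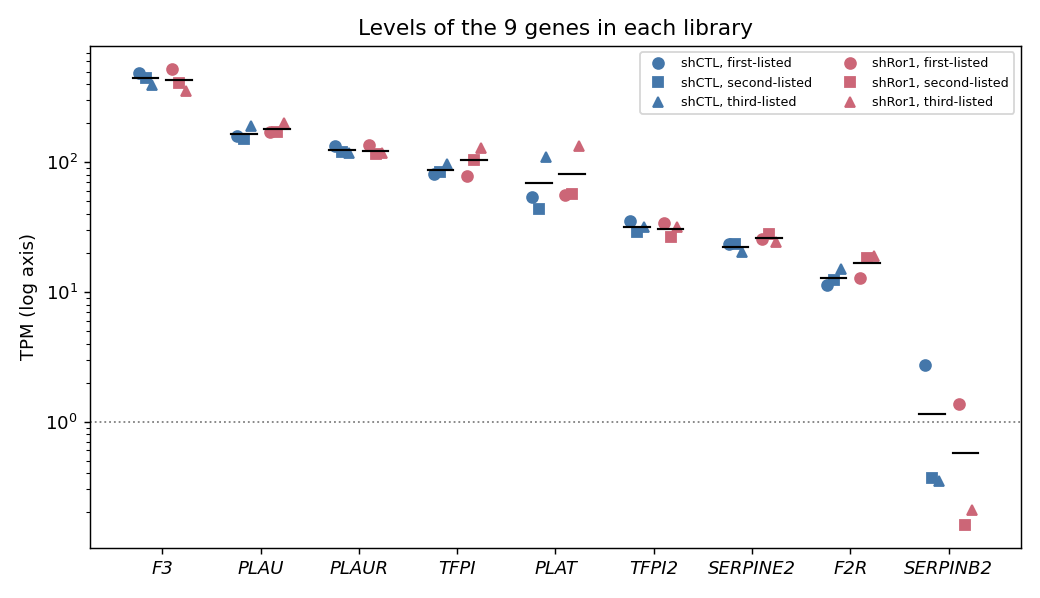
TPM of the 9 genes in each library on a log axis, with shCTL in blue, shRor1 in red, a marker shape for the place of the library in the table, the group mean (n = 3) as a black bar and a dotted line at 1 TPM. F3 was highest at 354 to 526 TPM and SERPINB2 was lowest. SERPINE2 was the only gene whose groups did not overlap in TPM, and they overlapped after median ratio scaling.

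Compared over the whole table, 0 of the 8 tested members passed an adjusted p of 0.05 with limma, where 0.0% of the 16554 genes did (0 genes, smallest adjusted p = 0.369). At an unadjusted p of 0.05 the members gave 0 of 8 as well, and 472 genes or 2.85% of all passed. Of these 472 genes 80.9% were higher in shRor1, while the share was 58.5% among the genes that passed after median ratio scaling and 53.9% among those that passed after quantile normalization. Neither scaling turned the direction of a member. Among the members 5 of 8 log2 fold changes were above 0 and 3 below, against 67% above 0 over all tested genes. The median log2 fold change of the 8 genes was 0.17 and that of all tested genes 0.05. The 95% intervals of all 8 members contained 0, and the narrowest was that of PLAUR and the widest that of PLAT.

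**Figure D2:**
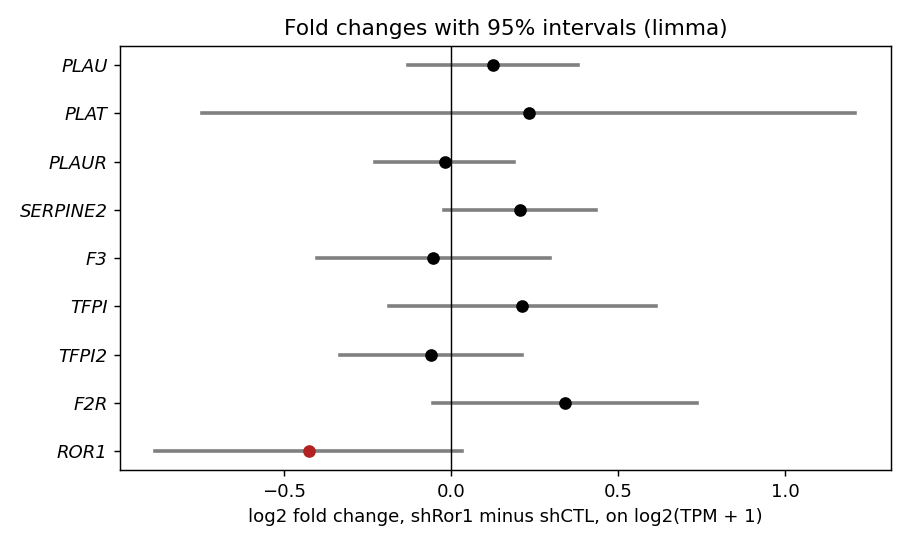
Log2 fold change of shRor1 against shCTL on the log2(TPM + 1) scale for the 8 tested members (black) and for ROR1 (red), with 95% intervals from limma as grey lines (n = 3 libraries per group). All intervals contain 0, the widest is that of PLAT and F2R has the largest value of the members at 0.34.

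The order of the levels in shCTL was F3, PLAU, PLAUR, TFPI, PLAT, TFPI2, SERPINE2, F2R and SERPINB2. F3 had 2.66 times the level of PLAU in shCTL and was above it in 6 of 6 libraries. PLAU was 1.34 times as high as PLAUR, again in 6 of 6 libraries. Neighbours that did not differ beyond their spread were TFPI and PLAT, whose ranges overlapped in both groups and whose order held in 4 of 6 libraries. PLAUR and TFPI overlapped in shRor1 only, as did TFPI2 and SERPINE2, and each order held in 5 of 6 libraries. The ligand urokinase and its receptor thus stood close together in these cells, whereas the tested serpin SERPINE2 was well below both. At the other end, F2R was above SERPINB2 in 6 of 6 libraries.

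Ratios within a library do not depend on how that library was scaled. PLAU was 6.02, 6.39 and 9.13 times as high as SERPINE2 and SERPINB2 together in shCTL and 6.34, 6.02 and 8.26 times in shRor1. This ratio of an activator to its inhibitors overlapped between the groups, with means of 7.18 ± 1.70 and 6.87 ± 1.21 (SD, n = 3 each). F3 was 4.15, 3.97 and 3.03 times as high as TFPI and TFPI2 together in shCTL and 4.68, 3.17 and 2.20 times in shRor1. Tissue factor exceeded its inhibitors in 6 of 6 libraries, and the shRor1 libraries lay on both sides of the controls. PLAU exceeded PLAUR in every library, by 1.18, 1.26 and 1.59 times in shCTL and by 1.26, 1.48 and 1.72 times in shRor1.

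The members were also compared by the library in which they were highest. F3, PLAUR, TFPI2 and SERPINB2 were highest in the first-listed library of both groups, and PLAU, PLAT, TFPI and F2R were highest in the third-listed library of both groups. SERPINE2 was highest in the first-listed shCTL and the second-listed shRor1 library. For 7 of the 8 tested members the highest library thus had the same place in both groups, which was the case for 57.6% of all tested genes. The whole order of the 3 libraries was the same in both groups for 5 of the 8 members and for 36% of all tested genes. The columns carry no replicate number, so that a pairing of these libraries is not stated. The third-listed libraries also had the most genes at 1 TPM or more, with 16597 against 16036 and 16134 in shCTL and 17033 against 16317 and 16544 in shRor1. The part of this difference in the values of the members was not tested.

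**Figure D3:**
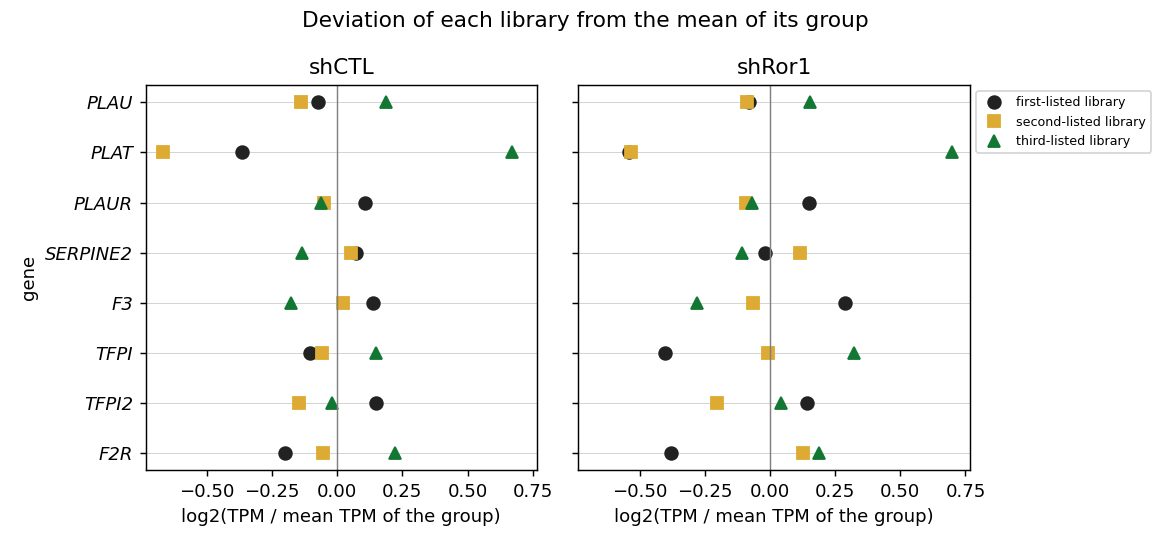
Deviation of each library from the mean of its group, as log2 of TPM over the group mean, for the 8 tested members in shCTL (left) and shRor1 (right), with 1 marker shape per place in the table. PLAU, PLAT, TFPI and F2R have the third-listed library on the right in both groups, and F3, PLAUR and TFPI2 the first-listed.

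The sequences around the start of the members are shown to compare genes that were highest in the same library. RefSeq promoter windows (250 bases before to 50 bases after the start, from GRCh38.p14) were given for 7 members in 9 windows. Each window was found at exactly 1 place of the GRCh37 genome, whose coordinates are used here. AP-1 is a dimer of FOS and JUN proteins that binds to the letters TGANTCA, searched on both strands. These letters occurred in 7.72% of all 34943 windows and in those of F3, PLAUR, TFPI2 and SERPINB2, and not in the windows of PLAU, TFPI and SERPINE2. The windows of the 4 members with a match are given here 5′ to 3′ on the strand of the gene with the match in capitals, beside that of TFPI as the inhibitor of F3 without a match. They lie at chr1:95007266-95007565 (F3, minus strand), chr19:44174272-44174571 (PLAUR, minus), chr7:93520016-93520315 (TFPI2, minus), chr18:61554689-61554988 (SERPINB2, plus) and chr2:188419113-188419412 (TFPI, minus).
F3 promoter: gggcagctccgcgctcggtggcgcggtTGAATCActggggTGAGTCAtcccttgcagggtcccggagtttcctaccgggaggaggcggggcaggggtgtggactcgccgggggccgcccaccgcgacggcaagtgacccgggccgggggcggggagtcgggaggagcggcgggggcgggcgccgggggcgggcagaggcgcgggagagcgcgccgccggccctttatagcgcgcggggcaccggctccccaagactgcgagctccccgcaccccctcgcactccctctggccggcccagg
PLAUR promoter: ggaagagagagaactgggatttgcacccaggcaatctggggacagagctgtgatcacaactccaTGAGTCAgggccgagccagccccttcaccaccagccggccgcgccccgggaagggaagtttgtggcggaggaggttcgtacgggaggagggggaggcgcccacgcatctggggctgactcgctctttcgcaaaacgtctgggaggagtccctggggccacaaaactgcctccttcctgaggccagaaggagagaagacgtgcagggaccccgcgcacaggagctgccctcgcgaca
TFPI2 promoter: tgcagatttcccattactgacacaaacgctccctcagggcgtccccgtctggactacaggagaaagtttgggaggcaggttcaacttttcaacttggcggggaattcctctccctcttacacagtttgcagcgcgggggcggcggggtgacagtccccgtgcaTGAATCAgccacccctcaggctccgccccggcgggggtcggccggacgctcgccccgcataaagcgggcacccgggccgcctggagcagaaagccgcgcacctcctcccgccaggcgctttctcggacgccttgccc
SERPINB2 promoter: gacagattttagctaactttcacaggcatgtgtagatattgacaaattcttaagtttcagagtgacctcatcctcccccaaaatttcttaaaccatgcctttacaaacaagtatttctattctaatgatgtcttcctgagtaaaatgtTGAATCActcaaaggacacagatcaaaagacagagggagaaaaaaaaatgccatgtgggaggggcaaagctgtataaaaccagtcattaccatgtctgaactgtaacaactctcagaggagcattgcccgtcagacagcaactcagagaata
TFPI promoter: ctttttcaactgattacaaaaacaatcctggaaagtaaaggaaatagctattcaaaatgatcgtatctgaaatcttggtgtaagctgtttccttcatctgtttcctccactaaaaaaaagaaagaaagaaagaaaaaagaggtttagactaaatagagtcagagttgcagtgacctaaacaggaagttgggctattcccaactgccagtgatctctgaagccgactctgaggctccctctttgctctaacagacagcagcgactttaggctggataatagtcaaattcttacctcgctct

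In F3 the letters were found at -223 and at -210 relative to the start, in PLAUR at -186, in SERPINB2 at -102 and in TFPI2 at -87. F3 also had 4 matches to the GC box GGGCGG, which occurred in 44.9% of all windows, TFPI2 had 2 and PLAUR, SERPINB2 and TFPI had 0. The letters GGAATG, bound by TEAD factors and found in 14% of all windows, were in none of the 9 windows of the members. The 4 members with the AP-1 letters were those that were highest in the first-listed library of both groups, which was noticed after the values were seen. PLAT and F2R, both highest in the third-listed library, had no window and were not assessed, and SERPINB2 was below the filter. Over all tested genes with a window, the first-listed library was the highest of both groups for 16.5% of the 756 genes with these letters and for 14.7% of the 9767 genes without them. The corresponding shares for the third-listed library were 40.3% and 35.3%. A match of letters is a description of the window, and binding was not measured.

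The other genes of both systems, chosen by their known role, were taken from 7 lists with 63 genes in the table, the members included. Of these 39 were tested, and 0 passed an adjusted p of 0.05 with limma (smallest adjusted p = 0.984), or an unadjusted p of 0.05. There were 28 log2 fold changes above 0 and 11 below, and their median was 0.08 against 0.05 over all tested genes. Plasminogen itself, PLG, had 0.25 to 0.63 TPM, so that the substrate of both activators was below 1 TPM in all libraries. Among the 17 coagulation factors 11 stayed below 1 TPM in every library, most of which are made by the liver. F5, F9 and FGA, and A2M among the fibrinolysis inhibitors, were listed at 0 in all libraries and were named after their values were seen. GGCX and VKORC1, enzymes of the vitamin K cycle that modifies clotting factors, had log2 fold changes of 0.16 and -0.0074.

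Among the 9 fibrinolysis inhibitors only 3 were tested. SERPINI1, or neuroserpin, had 3.50 to 5.75 TPM. The 8 tested genes of the list of urokinase, plasminogen and clearance receptors had 6 log2 fold changes above 0 and 2 below. The plasminogen receptors ANXA2 and ENO1 were the highest of all lists, with 2994 to 3404 TPM and 2318 to 2566 TPM. Both genes have processed pseudogenes, and reads could have been divided between these copies. S100A10, the partner of ANXA2, had 536 to 790 TPM and a log2 fold change of 0.21 (SE 0.14, limma adjusted p = 0.984).

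All 4 protease-activated receptors were tested, with log2 fold changes from -0.13 to 0.34. F2RL1, which encodes PAR2, a receptor cut by trypsin-like proteases and by factor VII bound to tissue factor, had 109, 125 and 131 TPM in shCTL and 115, 177 and 179 TPM in shRor1. Its log2 fold change of 0.34 (SE 0.17, limma adjusted p = 0.984) was close to that of F2R, and the same first-listed shRor1 library lay within the range of the controls. Without this library the log2 fold change of F2RL1 was 0.55 (limma unadjusted p = 0.000982, adjusted p = 0.44). In that fit 9 of the 39 tested list genes passed an unadjusted p of 0.05, against 1720 or 10.4% of all 16554 genes. F2RL2 had 10.6 to 15.2 TPM and a log2 fold change of 0.14 (standard error 0.13). The 10 genes that carry the PAR1 signal into the cell, such as the G protein subunits GNAI2 and GNA12 and the exchange factor ARHGEF1, had log2 fold changes from -0.11 to 0.24. Of the coagulation inhibitors, ANXA5, which binds to exposed phosphatidylserine, had 773 to 1026 TPM, and the protein C receptor PROCR had 58.8 to 83.4 TPM. Their log2 fold changes were 0.20 (standard error 0.10) and -0.04 (standard error 0.14).

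**Figure D4:**
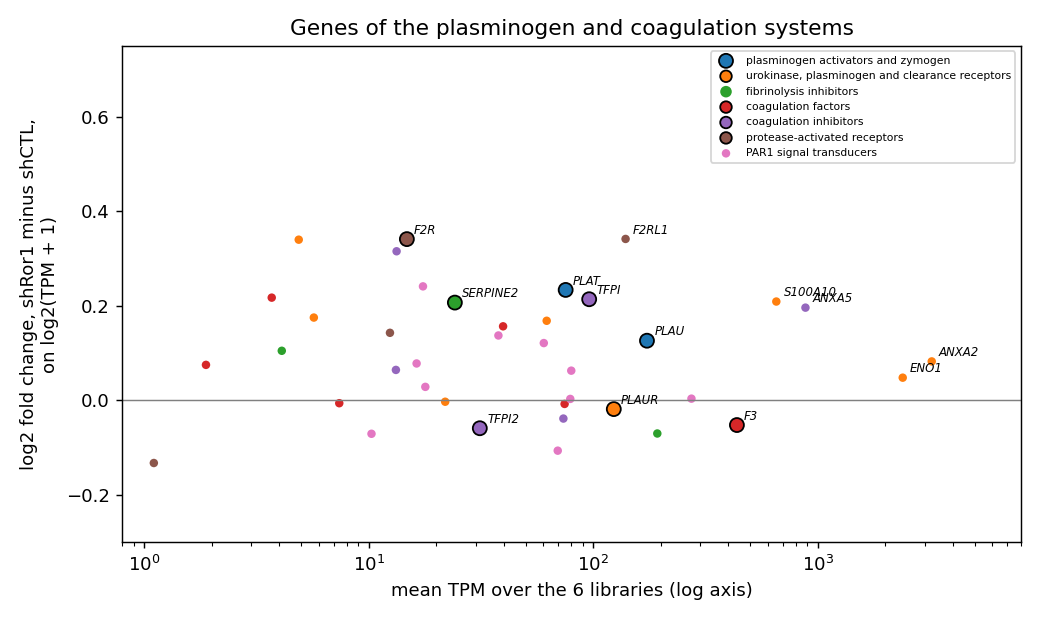
Log2 fold change of shRor1 against shCTL on the log2(TPM + 1) scale against the mean TPM over the 6 libraries (log axis) for the 39 tested genes of the lists, 1 colour per list, with members circled in black. The values lie between -0.13 and 0.34, with F2R and F2RL1 at the upper end and F3, PLAUR and TFPI2 just below 0.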

How the data were processed

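RNA from 3 shCTL and 3 shRor1 libraries of MDA-MB-231 cells was read from 1 end over 50 bases. Mapping by the authors used STAR on GRCh37 with Ensembl annotation, and they estimated gene abundances with RSEM 1.2.5. The deposited values are TPM per gene (57445 genes, 2 decimals), although they are called expected counts, and the columns sum to between 999999 and 1000001. TPM keeps no depth. The paper gives mapped reads per replicate, but the columns carry no replicate number to match them, so no counting error is given per library. The labels name polyA RNA, whereas the paper names a total RNA kit. No per-sample column was left out (0). The kit was stranded, but whether strand was used in counting is not given in the sources used here.

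The filter kept the 16554 genes that reached 1 TPM in 3 or more libraries. Values were taken as log2(TPM + 1), which understates changes of low genes. A linear model with the group as its only term used limma 3.58.1 (R 4.3.3) and a mean-variance trend, with Benjamini-Hochberg adjustment over all 16554 genes. The count model of the study, edgeR, was not used, since TPM are not counts. An exact two-sided permutation test of 3 against 3 libraries was added where its p is given. The fit was tested on simulated data with added changes. Few of the smallest added changes passed the adjusted threshold, although they were larger than the change of any tested member. Identical values were shared by no more than 0.483% of genes in any pair of libraries, so none was a copy.

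The 9 members and the lists were chosen with earlier results of these data known. Named genes are the members, ROR1, the 3 most abundant genes of each list and any with an unadjusted p below 0.05, and genes that overlap a member; 1 gene that this rule names is not reported here. Symbols were matched for 55022 of the 57445 identifiers, and positions come from GENCODE 44 mapped to GRCh37. SERPINB2 overlaps a gene of that annotation which was not analysed here. PECAM1, an endothelial marker, was not analysed here, and the summed levels were 46.7 to 52.4 TPM for luminal and hormone receptor genes, 1.58 to 2.14 TPM for leukocytes and platelets and 1.40 to 1.67 TPM for hepatocytes in shCTL and 48.2 to 56.4, 1.39 to 2.77 and 1.62 to 1.90 TPM in shRor1.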

Additional observations from a re-analysis of the deposited data

How the results depend on the processing

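No paired analysis was possible because within each group all libraries carry an identical header. The 14 alternative fits were a pseudocount of 0.1, no filter, a mean of at least 5 TPM, median ratio scaling, quantile normalization, no mean-variance trend, array weights, protein-coding genes only and each of the 6 libraries left out in turn. None of the 8 tested members passed an adjusted p of 0.05 under any of them. PLAU, SERPINE2, TFPI and F2R kept their direction under all 14 (0.048 to 0.22, 0.14 to 0.26, 0.040 to 0.40 and 0.24 to 0.51), and the other members turned only with a library left out, within -0.17 to 0.62 for PLAT, -0.094 to 0.036 for PLAUR, -0.21 to 0.078 for F3 and -0.13 to 0.037 for TFPI2. The median log2 fold change of the members, 0.17, ran from 0.013 without the second-listed shCTL library to 0.19 without the first-listed shRor1 library. Genes past an adjusted p of 0.05 numbered 0, and 0 to 1 with a library left out (1 without the third-listed shRor1 library). An unadjusted p of 0.05 was passed by 472 genes, against 1363 unfiltered (of 39104), 227 with the higher minimum of 5 TPM on the mean (of 11145), 203 among protein-coding genes (of 12284), 859 with array weights and 278 to 1720 with a library left out (278 and 289 without the second- and the first-listed shCTL library, 1720 without the first-listed shRor1 library). Of the 39 tested genes in the system lists, 0 passed an unadjusted p of 0.05, against 3 with array weights (F2R, F2RL1 and ANXA5), where 859 of all 16554 genes passed. With a library left out 0 to 9 passed. There were 9 of 39 without the first-listed shRor1 library, where 10.4% of all genes passed. Without the third-listed shCTL library 1 passed, F2R, beside 667 of all 16554 genes. Without the third-listed shRor1 library 1 passed, SERPINE2, beside 335 of all 16554 genes. The cause of the shifts with array weights was not tested. Depth cannot be read from TPM.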
